A study of Mus musculus with 16 samples.

Results

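The interferon-linked poly(ADP-ribose) polymerase (PARP) genes and a partner of one of them were followed in KPC1199 cells, a mouse line of pancreatic ductal adenocarcinoma. The set was chosen by gene symbol and held 9 genes, Parp1, Parp2, Parp8, Parp9, Parp10, Parp11, Parp12, Parp14 and Dtx3l, of 56980 features in the IFNγ experiment and 55414 genes in the untreated experiment. Each of the 9 symbols was found once in both tables, and each passed the filter on low counts in both. Parp1 and Parp2 were included as members that are not known for interferon control.

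The measurement was bulk RNA-seq of cultured cells. KPC1199 came from a tumor of a mouse with mutant Trp53 and a Cre driven by the Pdx promoter, and all groups share the alleles of that line. Cells received a lentiviral CRISPR-Cas9 vector with either a control guide (sgCtrL) or guide 1 against Sin3B (Sin3Bsg1), and whether a line is 1 clone is not given in the sources used here. In the IFNγ experiment each genotype was grown with IFNγ (10 ng/ml for 24 hours) or without it, with 3 libraries in each of the 4 groups. A separate untreated experiment had 2 libraries of each genotype. The labels do not say that libraries came from separate cultures, so p-values measure the spread between these libraries, which may be technical.

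PARP family enzymes take ADP-ribose from NAD+ and attach it to proteins or nucleic acids. PARP1 and PARP2 build chains at DNA breaks and recruit repair factors, whereas most other members attach single units. Several of the latter are known as interferon-stimulated genes with antiviral roles, and interferon gamma acts through JAK kinases and on promoters through gamma-activated sites (GAS) and interferon-stimulated response elements (ISRE), the latter bound by IRF1. PARP9 has little transferase activity by itself and pairs with the ubiquitin ligase DTX3L, PARP14 carries macrodomains that read ADP-ribose, PARP12 is a zinc finger protein, and PARP10, PARP11 and PARP8 are mono-ADP-ribosyltransferases.

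In the annotation of the deposited tables, 8 of the 9 members carry the PARP catalytic domain, which 16 features carry in all. Dtx3l is the exception. Parp9 and Parp14 hold a macrodomain, and Parp11 and Parp12 hold a WWE domain, which binds ADP-ribose chains. The term for protein mono-ADP-ribosylation is attached to 6 members, Parp8, Parp9, Parp10, Parp11, Parp12 and Parp14, and the term for innate immune response to 3, Parp9, Parp14 and Dtx3l.

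Coordinates are those of GENCODE M39 on GRCm39. Parp14 (ENSMUSG00000034422, chr16:35653231-35692003, minus strand), Dtx3l (ENSMUSG00000049502, chr16:35746881-35759521, minus strand) and Parp9 (ENSMUSG00000022906, chr16:35758840-35792980, plus strand) lie within 139750 bases. The 5′ ends of Parp9 and Dtx3l overlap on opposite strands over 682 bases, of which 458 are exonic in both. These make up 9.12% of the exonic bases of Parp9 and 8% of those of Dtx3l. The strand setting of the counting is not given in the sources used here, and reads from the shared exonic stretch cannot be told apart. The deposited count of Parp9 was not a whole number in any of 16 libraries, and that of Dtx3l in 15 of 16.

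The other members lie apart from this block. Parp12 (ENSMUSG00000038507) is at chr6:39063342-39095573 on the minus strand and Parp11 (ENSMUSG00000037997) at chr6:127423483-127491198 on the plus strand. Parp10 (ENSMUSG00000063268) is at chr15:76115374-76127648 on the minus strand, where 205 of its exonic bases are shared with Plec. Parp8 (ENSMUSG00000021725) is at chr13:116987380-117162073 on the minus strand. Parp1 (ENSMUSG00000026496) is at chr1:180396443-180431307 and Parp2 (ENSMUSG00000036023) at chr14:51044948-51058759, both on the plus strand. Parp2 shares 307 exonic bases with Ccnb1ip1 and 277 with the RNA gene Rpph1 on the opposite strand, and neither of these passed the filter on low counts.

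RefSeq promoter windows (GRCm38.p6, from 250 bases before to 50 after a start site) were found for 6 of the 9 members, in 7 windows. These are windows for Parp1, Parp2, Parp8, Parp12 and Dtx3l and a pair for Parp11. Each window was searched on both strands for the GAS letters TTCNNNGAA and for the ISRE core, which is GAAA, any 2 bases and GAAA again. Among all 32851 windows, 8.3% held the GAS letters, 3.44% the ISRE core and 11.3% either. Of the 7 member windows, 1 held either, the upstream window of Parp11. Its ISRE core match (TTTCGATTTC, minus strand) began 44 bases before the start site, and its GAS match (TTCTTGGAA) began 37 bases before it, so that the 2 matches overlap. Shown are this window, the windows of 2 induced members without a match, and that of Parp1, whose level did not pass the test for IFNγ, with matched letters in capitals. A match is a description of letters and was not tested as a binding site, and a window without a match says only that these letters are not in it.
Parp11 (chr6:127446590-127446889, plus strand): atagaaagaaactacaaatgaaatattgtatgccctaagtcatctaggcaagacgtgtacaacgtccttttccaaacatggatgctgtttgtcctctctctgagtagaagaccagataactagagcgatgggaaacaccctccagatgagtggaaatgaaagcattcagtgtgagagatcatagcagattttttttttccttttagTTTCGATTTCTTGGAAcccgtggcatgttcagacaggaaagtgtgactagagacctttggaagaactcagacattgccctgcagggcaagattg
Dtx3l (chr16:35938978-35939277, minus strand): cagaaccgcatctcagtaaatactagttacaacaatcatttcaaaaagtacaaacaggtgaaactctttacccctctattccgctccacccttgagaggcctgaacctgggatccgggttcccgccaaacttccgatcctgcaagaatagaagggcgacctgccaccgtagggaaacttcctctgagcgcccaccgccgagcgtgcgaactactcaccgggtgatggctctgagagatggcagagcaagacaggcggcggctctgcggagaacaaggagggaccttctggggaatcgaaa
Parp12 (chr6:39118300-39118599, minus strand): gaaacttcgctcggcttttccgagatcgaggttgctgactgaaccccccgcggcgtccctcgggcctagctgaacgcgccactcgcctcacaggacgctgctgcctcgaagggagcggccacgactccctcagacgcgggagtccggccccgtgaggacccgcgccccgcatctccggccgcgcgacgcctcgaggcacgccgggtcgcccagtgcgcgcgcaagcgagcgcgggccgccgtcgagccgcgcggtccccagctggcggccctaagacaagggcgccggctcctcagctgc
Parp1 (chr1:180568641-180568940, plus strand): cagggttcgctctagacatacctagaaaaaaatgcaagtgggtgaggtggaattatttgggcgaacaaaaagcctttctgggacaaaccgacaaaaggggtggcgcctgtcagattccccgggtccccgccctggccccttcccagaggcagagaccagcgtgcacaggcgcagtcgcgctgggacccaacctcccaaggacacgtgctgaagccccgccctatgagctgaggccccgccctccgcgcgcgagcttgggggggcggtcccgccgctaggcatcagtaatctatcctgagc

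Libraries of the IFNγ experiment held 18128055 to 27056903 counts and those of the untreated experiment 29683181 to 32311721. Sin3b, the gene targeted by the guide, was at 80.4 to 95.6 counts per 1000000 reads (CPM, library sizes scaled by TMM) in the 6 sgCtrL libraries of the IFNγ experiment and at 33.6 to 39.4 CPM in the 6 Sin3Bsg1 libraries. In the untreated experiment it was at 83.4 and 88.6 CPM against 34.1 and 36.5 CPM. All 5 epithelial markers were measured at a mean of at least 1 CPM in each group, and the 5 leukocyte markers summed to at most 0.125 CPM in any library. The epithelial markers summed to 2965 to 3001 CPM in sgCtrL and 3163 to 3262 CPM in Sin3Bsg1 without IFNγ, to 3149 to 3671 and 4144 to 4390 CPM with it, and to 4562 to 4586 and 6072 to 6135 CPM in the untreated experiment. With IFNγ 1 of the 5 rose and 2 fell in sgCtrL, and 2 rose and 1 fell in Sin3Bsg1. By genotype 4 were higher in Sin3Bsg1 with IFNγ, 2 without it and 5 in the untreated experiment, and none was lower. Of the 5 fibroblast markers only Pdgfra and Pdgfrb had a mean of at least 1 CPM, and both fell with IFNγ in both genotypes. By genotype Pdgfra was lower and Pdgfrb higher in Sin3Bsg1 with and without IFNγ, and both were lower in the untreated experiment, where the 5 markers summed to 99.8 to 100.1 CPM in sgCtrL and 30.1 to 33.2 CPM in Sin3Bsg1. The 3 endothelial markers summed to at most 0.522 CPM in any library. The part of these marker differences in the results was not tested. Replicate 1 of sgCtrL with IFNγ stood apart. Averaged over genes, the chi-square of its counts was 23.3 against replicate 2 and 19.5 against replicate 3, which gave 4.12 between them. Pairs of replicates in the other groups gave 2.4 to 9.65.

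IFNγ raised 6 members in both genotypes, between 3.51-fold and 27.8-fold. By point estimate the order was Parp14, Dtx3l, Parp9, Parp12, Parp10 and Parp11 in both genotypes, and the 95% intervals of Parp9 and Parp12 and those of Parp10 and Parp11 overlapped. In Sin3Bsg1 the interval of Dtx3l also overlapped those of Parp9 and Parp12. Parp8 passed the test by a small margin in sgCtrL, and Parp1 and Parp2 did not pass it in either genotype. In all, 7 of 9 members rose in sgCtrL and 6 of 9 in Sin3Bsg1, and none fell. Of 14913 genes tested with edgeR, 15.7% rose and 14.5% fell in sgCtrL, and 16.1% rose and 12.3% fell in Sin3Bsg1. The median log2 fold change of the 9 members was 1.91 in sgCtrL and 1.98 in Sin3Bsg1, beside -0.00062 and 0.0052 over all genes. In bulk RNA, more responding cells and more RNA per cell cannot be told apart. Leukocyte markers were at 0 in every library with IFNγ.

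**Figure D1:**
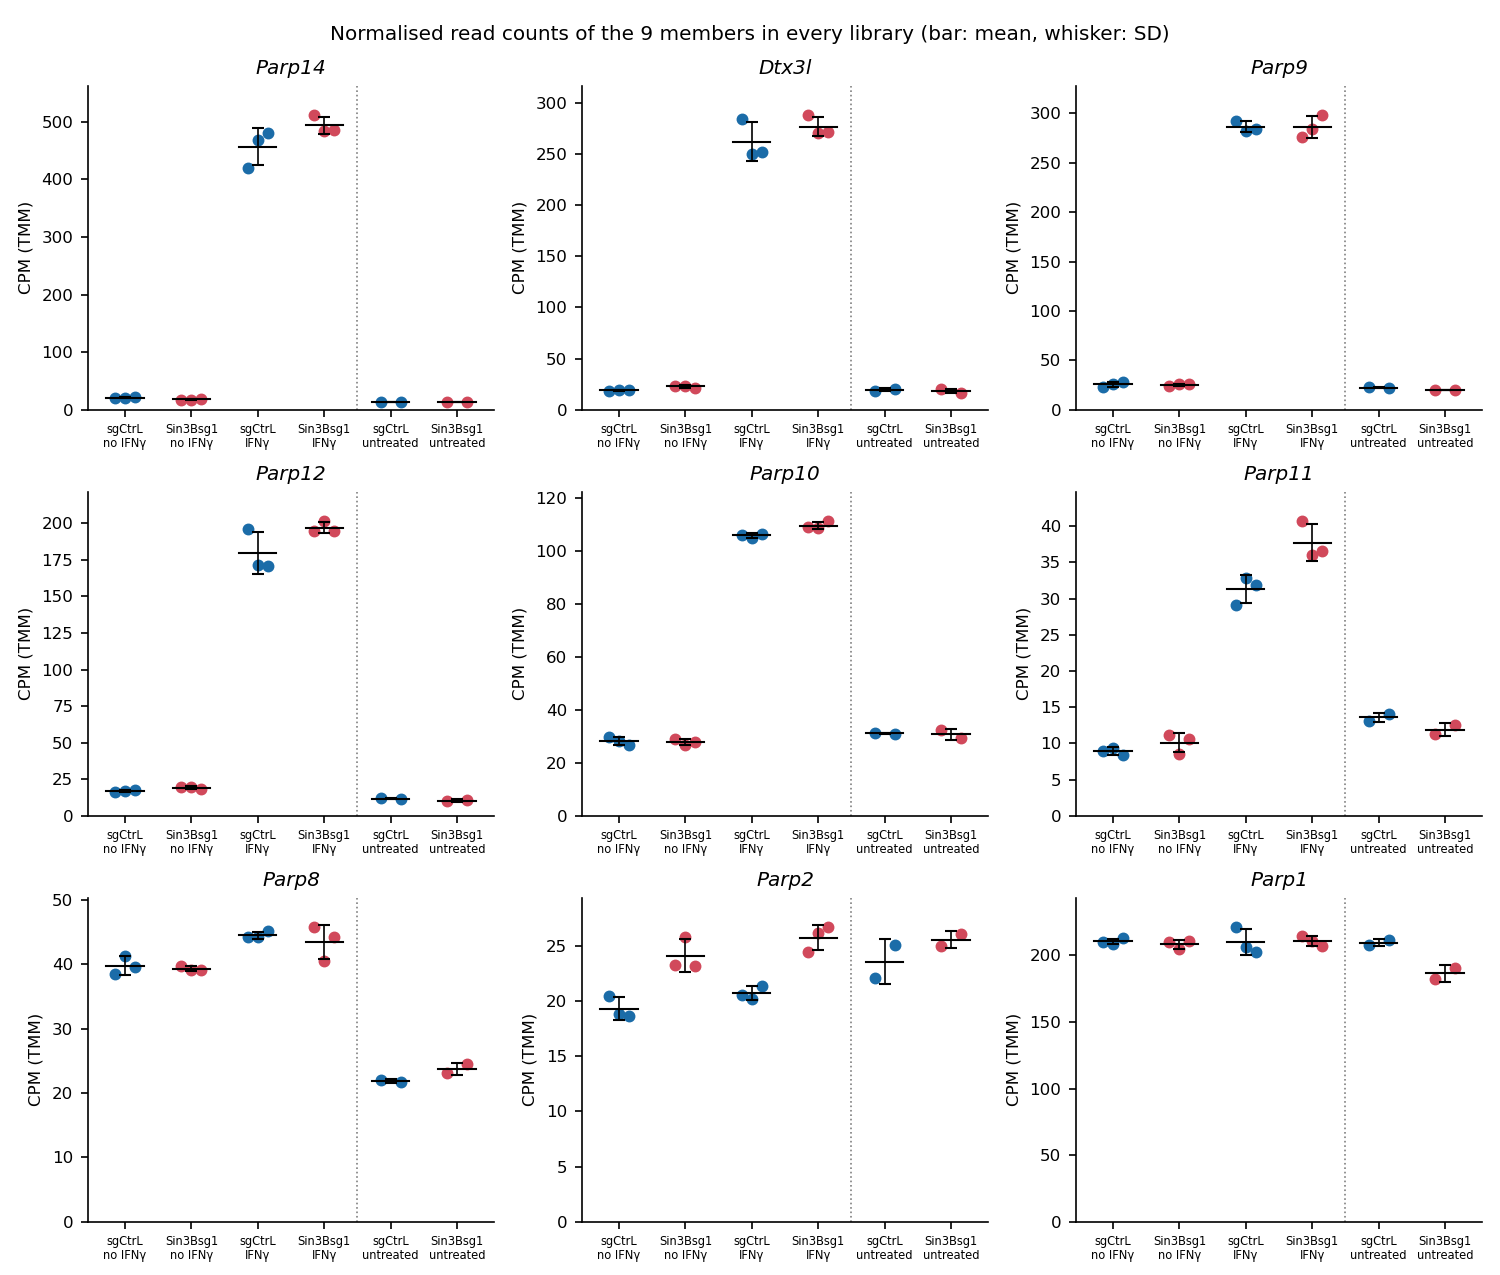
Normalised read counts (CPM, TMM scaled, linear axes from 0) of the 9 members in all 16 libraries. Points are libraries, blue for sgCtrL and red for Sin3Bsg1, bars are group means, whiskers are SD, and the dotted line separates the untreated experiment. The 6 libraries with IFNγ sit far above the others for Parp14, Dtx3l, Parp9, Parp12, Parp10 and Parp11, and not for Parp8, Parp2 and Parp1.

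Parp14, the large macrodomain transferase, had the largest change among the members. In sgCtrL it was at 20.4, 19.8 and 21.8 CPM without IFNγ and at 420.3, 467.9 and 481 CPM with it. In Sin3Bsg1 it was at 17.1, 17.0 and 19.1 CPM without and at 511, 483 and 487 CPM with IFNγ. The treated and the untreated libraries were far apart in both genotypes, and replicate 1 of sgCtrL was the lowest treated library. The rise was 22.1-fold in sgCtrL (log2 fold change 4.47 ± 0.07 SE, edgeR adjusted p = 3.55e-17) and 27.8-fold in Sin3Bsg1 (4.80 ± 0.07, adjusted p = 1.57e-17). Among 14913 genes it was number 106 and number 98 from the highest log2 fold change. Gm49730, a transcript model that lies within Parp14 on the same strand and shares 110 exonic bases with it, rose by 3.30 and 3.31 on the log2 scale (adjusted p = 0.0111 and 0.00271).

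Parp9 and Dtx3l, which encode a complex and meet head to head, rose in both genotypes, and in sgCtrL the 95% interval of Dtx3l lay above that of Parp9. Parp9 was at 23.4, 25.8 and 27.6 CPM in sgCtrL without IFNγ and at 293, 283 and 284 CPM with it. In Sin3Bsg1 it went from 24.4, 25.5 and 26.5 CPM to 276, 285 and 298 CPM. The log2 fold changes were 3.48 ± 0.06 and 3.49 ± 0.06, or 11.2-fold in each genotype (edgeR adjusted p = 1.64e-16 and 1.18e-16). Dtx3l was at 18.4, 19.6 and 19.1 CPM in sgCtrL without IFNγ and at 284, 250.0 and 252 CPM with it. In Sin3Bsg1 it went from 23.3, 23.3 and 21.3 CPM to 287, 270.4 and 272 CPM. No library with IFNγ overlapped a library without it, and the rises were 13.7-fold in sgCtrL (3.78 ± 0.06, adjusted p = 1.36e-16) and 12.2-fold in Sin3Bsg1 (3.61 ± 0.06, adjusted p = 1.29e-16). Per length, the ratio of Parp9 to Dtx3l was 2.01 ± 0.136 (SD, n = 3) in sgCtrL without IFNγ and between 1.55 and 1.69 in the means of the other 3 groups of that experiment. This ratio includes the shared exonic stretch in both genes.

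Parp12, the zinc finger member, rose about as much as Parp9. It was at 16.3, 16.7 and 17.8 CPM in sgCtrL without IFNγ and at 196, 172 and 171 CPM with it, the highest value being that of replicate 1. In Sin3Bsg1 it went from 19.6, 19.97 and 18.2 CPM to 195, 201 and 195 CPM. The groups did not overlap, with a rise of 10.6-fold in sgCtrL (3.41 ± 0.07, edgeR adjusted p = 5.76e-16) and 10.2-fold in Sin3Bsg1 (3.35 ± 0.06, adjusted p = 4.55e-16).

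Parp10 and Parp11 formed a lower step. Parp10 was at 29.6, 28.1 and 26.8 CPM in sgCtrL without IFNγ and at 106, 105 and 107 CPM with it. In Sin3Bsg1 it went from 28.8, 26.6 and 27.7 CPM to 109, 109 and 111 CPM. Its rise was 3.76-fold (1.91 ± 0.05) and 3.95-fold (1.98 ± 0.05), with edgeR adjusted p of 3.58e-14 and 1.76e-14. In the libraries without IFNγ of the IFNγ experiment, Parp11 had the lowest counts of the set, 156 to 291 reads. It was at 8.95, 9.39 and 8.34 CPM in sgCtrL without IFNγ and at 29.1, 32.8 and 31.9 CPM with it. In Sin3Bsg1 it went from 11.1, 8.57 and 10.6 CPM to 40.6, 36.0 and 36.5 CPM. The treated and untreated libraries of both genes were separate, and Parp11 rose 3.51-fold in sgCtrL (1.81 ± 0.09, adjusted p = 3.93e-10) and 3.73-fold in Sin3Bsg1 (1.90 ± 0.09, adjusted p = 9.98e-11).

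Parp8 changed little. It was at 38.4, 41.3 and 39.6 CPM in sgCtrL without IFNγ and at 44.1, 44.3 and 45.1 CPM with it, with no overlap. The rise was 1.12-fold (0.16 ± 0.06, edgeR adjusted p = 0.0367). In Sin3Bsg1 it was at 39.7, 39.1 and 39.0 CPM without and at 45.7, 40.5 and 44.2 CPM with IFNγ (0.14 ± 0.05, adjusted p = 0.0591). The call in sgCtrL was lost with DESeq2 (adjusted p = 0.0857), without a filter on low counts (0.143), with only the 2 groups in the fit (0.0662) and without any 1 of sgCtrL replicates 2 and 3 with IFNγ or 1 and 3 without it (0.0824 to 0.131). In Sin3Bsg1 the rise passed the test without replicate 2 with IFNγ (0.19, adjusted p = 0.0217). The 2 genotypes were not shown to differ (interaction -0.017, 95% interval -0.18 to 0.15).

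Parp1 and Parp2, the DNA break sensors, did not pass the test. Parp1 was at 210.3, 209 and 213 CPM in sgCtrL without IFNγ and at 221, 207 and 203 CPM with it. In Sin3Bsg1 it was at 210.2, 205 and 211 CPM without and at 215, 211 and 207 CPM with IFNγ. The groups overlapped, and the 95% intervals of the log2 change ran from -0.10 to 0.09 in sgCtrL and from -0.08 to 0.11 in Sin3Bsg1. Parp2 was at 20.5, 18.8 and 18.6 CPM in sgCtrL without IFNγ and at 20.5, 20.2 and 21.4 CPM with it. The intervals of its log2 change, -0.05 to 0.25 and -0.05 to 0.24, leave room for a rise of that size and none near those of the 6 induced members.

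**Figure D2:**
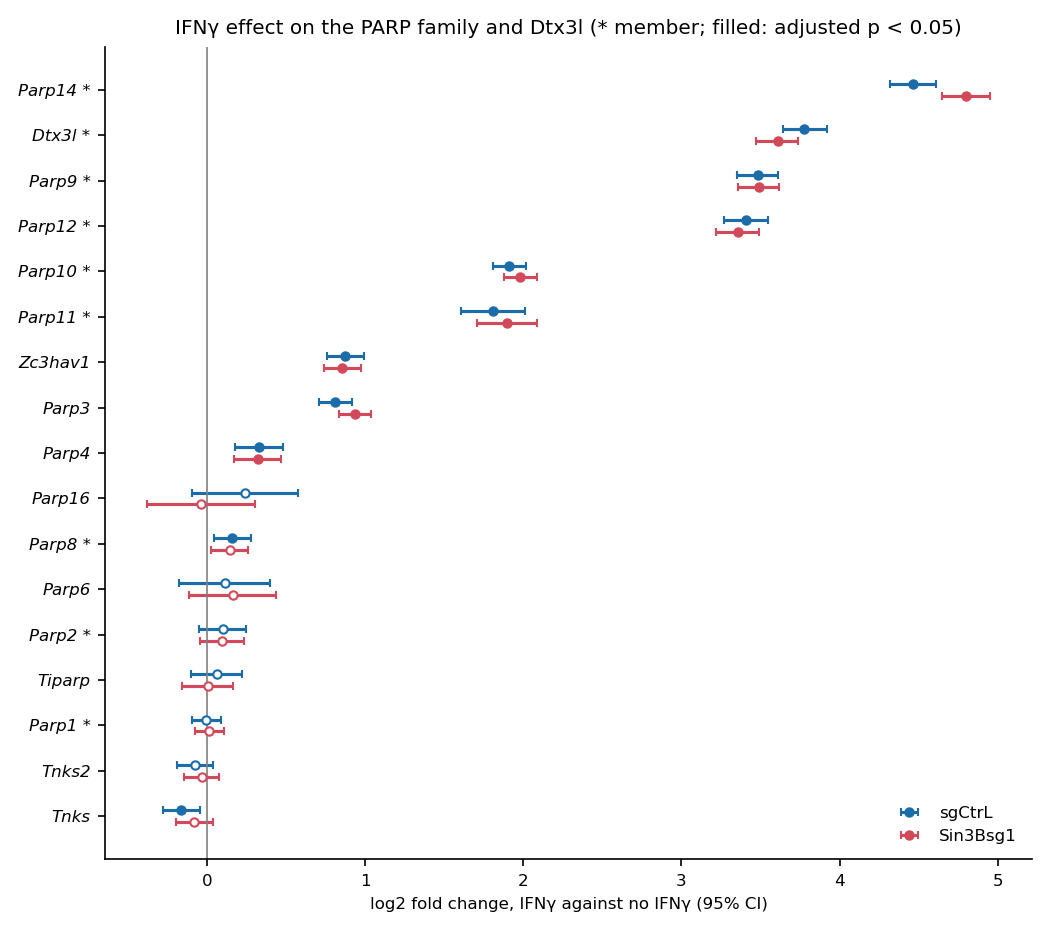
Log2 fold change (IFNγ against no IFNγ, with 95% intervals) of the 9 members, marked with an asterisk, and of the 8 other PARP genes, in sgCtrL (blue) and Sin3Bsg1 (red); filled points passed the edgeR test. The 6 induced members lie at 1.81 to 4.80, above Zc3hav1 and Parp3 at 0.81 to 0.94, and the remaining genes lie at 0.33 or less.

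Levels were compared between genes only per length, as transcripts per 1000000 (TPM), for which each count was divided by the gene length in the table. Without IFNγ, Parp1 was the most abundant member, at 119 ± 2.08 TPM in sgCtrL and 119.5 ± 2.21 TPM in Sin3Bsg1 (SD, n = 3). Parp8 followed in sgCtrL at 28.1 TPM and Parp2 at 22.3 TPM, and both were at 28.2 to 28.3 TPM in Sin3Bsg1 with overlapping libraries. Then came Parp10 (18.3 TPM in both), Parp9 (15.8 and 15.95 TPM), Parp12 (11.5 and 13.2 TPM) and Dtx3l (7.86 and 9.48 TPM). Parp14 and Parp11 were lowest, at 6.10 and 5.20 TPM in sgCtrL, and overlapped in Sin3Bsg1 at 5.31 and 5.98 TPM.

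With IFNγ this order was rearranged. Parp9 was first, at 168 ± 4.72 TPM in sgCtrL and 168 ± 2.40 TPM in Sin3Bsg1, followed by Parp14 at 128 ± 8.97 and 139 ± 8.82 TPM. Parp12 was at 115 ± 9.86 and 127 ± 4.23 TPM, Parp1 at 113 ± 5.64 and 113 ± 5.84 TPM, and Dtx3l at 102 ± 8.03 and 108 ± 7.29 TPM. In sgCtrL the neighbours from Parp14 down to Dtx3l overlapped, and in Sin3Bsg1 only Parp1 and Dtx3l among these did. Parp10 was at 65.4 and 67.8 TPM, and Parp8, Parp2 and Parp11 were at 31.8 TPM or less in every library. The summed level of the 6 induced members went from 64.7 ± 1.01 to 596 ± 16.4 TPM in sgCtrL and from 68.2 ± 0.98 to 630.5 ± 23.2 TPM in Sin3Bsg1. That of Parp1 and Parp2 went from 141 ± 2.88 to 135 ± 5.70 TPM and from 148 ± 0.938 to 142 ± 5.49 TPM. TPM was not scaled by TMM. On the scaled CPM, mean Parp1 went from 210.6 to 210.1 in sgCtrL and from 208.4 to 210.7 in Sin3Bsg1. Mean Parp2 went from 19.3 to 20.7 CPM and from 24.1 to 25.7 CPM.

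**Figure D3:**
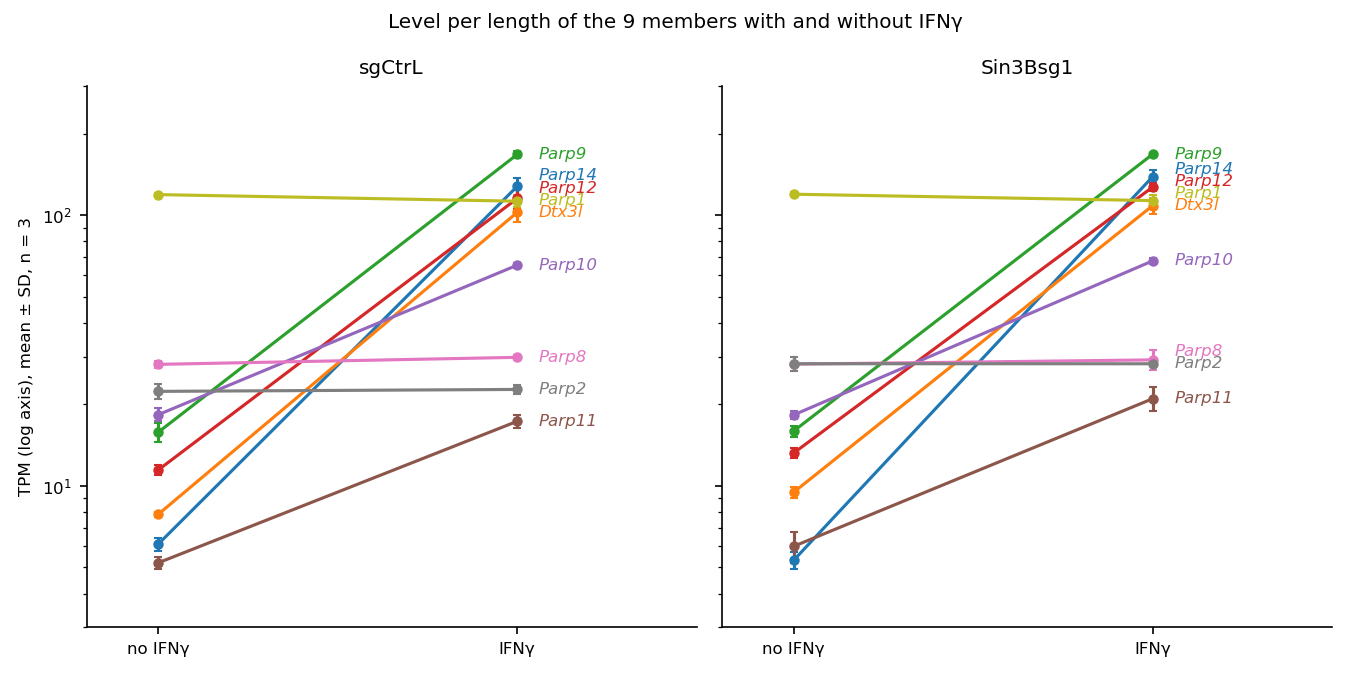
Mean level per length (TPM, log axis) of the 9 members without and with IFNγ in sgCtrL (left) and Sin3Bsg1 (right); whiskers are SD over 3 libraries. Parp1 stays near 113 to 119.5 TPM while Parp9, Parp14, Parp12 and Dtx3l rise from means of 5.31 to 15.95 TPM to means of 102 to 168 TPM.

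For the 6 induced members the genotype effect was small beside the IFNγ effect. For Parp2 the genotype difference in this experiment was the larger by point estimate. With IFNγ, 2 of 9 members were higher in Sin3Bsg1 than in sgCtrL and none was lower, where 8.62% of all genes tested were higher and 7.9% lower. Without IFNγ, 2 were higher and 1 lower, where 7.89% of genes were higher and 9.33% lower. The largest log2 difference that passed the test was 0.32.

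Parp2 was higher in Sin3Bsg1 under both conditions. Without IFNγ it was at 23.3, 25.8 and 23.2 CPM in Sin3Bsg1, above the 18.6 to 20.5 CPM of sgCtrL (0.32 ± 0.07, 1.25-fold, edgeR adjusted p = 0.00383). With IFNγ it was at 24.4, 26.1 and 26.7 CPM, above the 20.2 to 21.4 CPM of sgCtrL (0.31 ± 0.07, 1.24-fold, adjusted p = 0.00412). The untreated experiment had it at 22.1 and 25.0 CPM in sgCtrL and at 25.0 and 26.1 CPM in Sin3Bsg1. There the difference of 0.12 (95% interval -0.05 to 0.28) did not pass the test.

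Parp11 was at 29.1 to 32.8 CPM in sgCtrL with IFNγ and at 36.0 to 40.6 CPM in Sin3Bsg1, without overlap (0.27 ± 0.08, 1.20-fold, edgeR adjusted p = 0.0339). The call was lost with only these 2 groups in the fit (adjusted p = 0.0538), without any 1 of the 3 Sin3Bsg1 replicates with IFNγ (0.0513 to 0.161) and without sgCtrL replicate 1 or 3 (0.0815 and 0.0609). Without IFNγ the 2 genotypes overlapped (0.18, 95% interval -0.04 to 0.40). Parp11 in the untreated experiment was at 13.1 and 14.1 CPM in sgCtrL and at 11.3 and 12.5 CPM in Sin3Bsg1 (-0.19, adjusted p = 0.161).

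Dtx3l without IFNγ was at 18.4 to 19.6 CPM in sgCtrL and at 21.3 to 23.3 CPM in Sin3Bsg1 (0.25 ± 0.07, 1.19-fold, edgeR adjusted p = 0.0174). The call was lost without Sin3Bsg1 replicate 1 or 2 or sgCtrL replicate 1 or 3 (adjusted p = 0.0501 to 0.0729). The groups of the untreated experiment overlapped, at 18.4 and 20.3 CPM in sgCtrL and at 19.8 and 16.7 CPM in Sin3Bsg1 (-0.080, adjusted p = 0.578). The difference of its neighbour Parp9 without IFNγ was -0.0082 (95% interval -0.14 to 0.13).

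Parp14 without IFNγ was the only member lower in Sin3Bsg1, at 17.0 to 19.1 CPM against 19.8 to 21.8 CPM in sgCtrL (-0.22 ± 0.07, edgeR adjusted p = 0.0479). The call was lost with DESeq2 (adjusted p = 0.0593), with RLE normalization (0.0612) and without Sin3Bsg1 replicate 1 or 2 or any 1 of the 3 sgCtrL replicates (0.0603 to 0.177). The untreated experiment had it at 14.21 and 14.15 CPM in sgCtrL and at 13.1 and 13.3 CPM in Sin3Bsg1 (-0.10, adjusted p = 0.439). With IFNγ its levels in Sin3Bsg1, 483 to 511 CPM, lay above the 420.3 to 481 CPM of sgCtrL without passing the test (0.11, adjusted p = 0.205).

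Parp12 was higher in each Sin3Bsg1 library than in each sgCtrL library without IFNγ, and the difference of 0.19 did not pass the test (edgeR adjusted p = 0.0829). With IFNγ the groups overlapped through sgCtrL replicate 1 (0.14, adjusted p = 0.109). Without that library, which stood apart from its group, Parp12 (0.20, adjusted p = 0.00276) and Dtx3l (0.13, adjusted p = 0.038) passed the test with IFNγ and Parp11 did not, so that 3 members were higher. The number of members raised by IFNγ in sgCtrL stayed at 7 without it.

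In the untreated experiment Parp1 was the only member that passed the test. It was at 208 and 211 CPM in sgCtrL and at 182 and 191 CPM in Sin3Bsg1 (-0.17 ± 0.03, edgeR adjusted p = 0.000275). In the IFNγ experiment its levels did not differ by genotype beyond the spread, with 95% intervals of -0.11 to 0.08 without and -0.09 to 0.10 with IFNγ. Of 14589 genes tested in the untreated experiment, 15.1% were higher and 16.0% lower in Sin3Bsg1. Parp9 was at 22.5 and 22.4 CPM in sgCtrL against 19.65 and 19.98 CPM in Sin3Bsg1, without overlap (-0.18, adjusted p = 0.0823). Parp8 was lower in all 4 libraries of this experiment, 21.6 to 24.4 CPM, than in any library of the other, and the 2 experiments were not tested against each other.

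**Figure D4:**
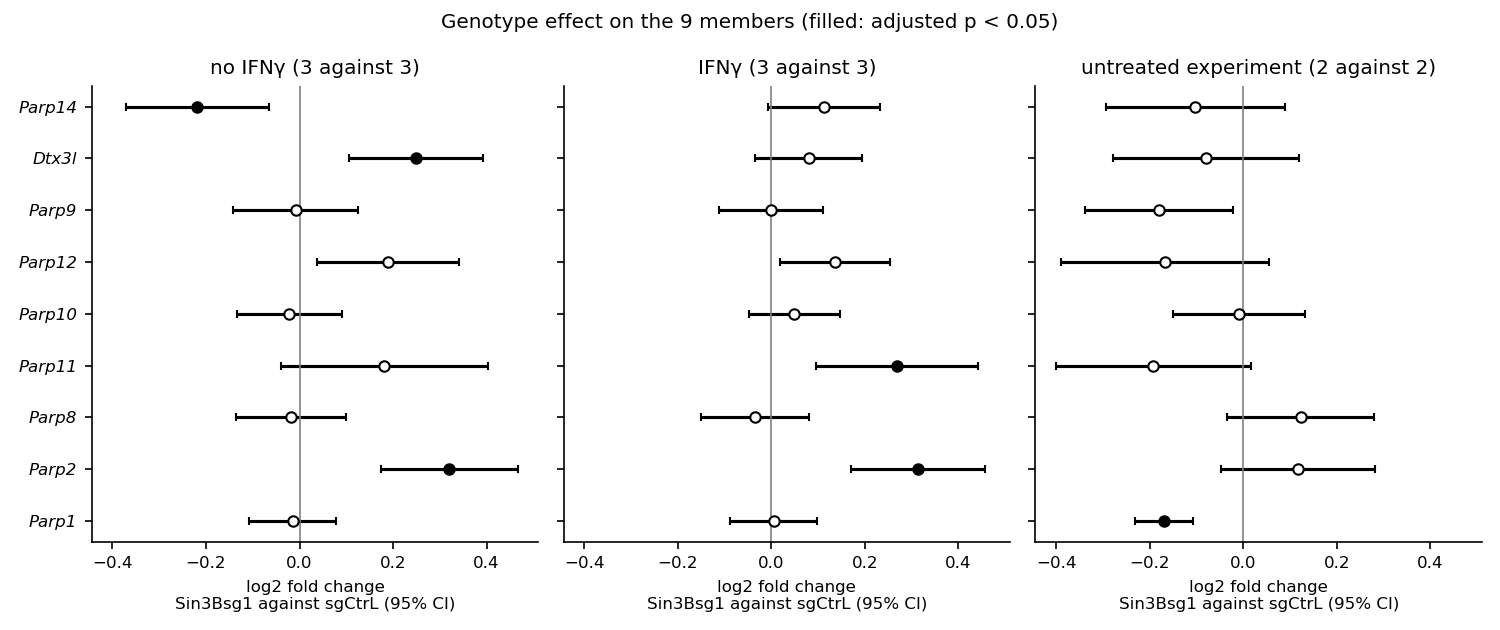
Log2 fold change of Sin3Bsg1 against sgCtrL (95% intervals) for the 9 members without IFNγ, with IFNγ and in the untreated experiment; filled points passed the edgeR test. Parp2 lies at 0.32 and 0.31 in the IFNγ experiment and at 0.12 in the untreated one, and all points lie between -0.22 and 0.32.

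The interaction asked whether IFNγ changed a gene by a different amount in Sin3Bsg1. No member passed the edgeR test, 0 passed with DESeq2, and 0.0805% of genes passed upwards and 0.0335% downwards. At an unadjusted p under 0.05, 810 genes of 14913 were counted, Parp14 among them. That is close to the share of 0.05 counted on average where no gene differs. Parp14 had the largest difference among the members, 0.33 (95% interval 0.14 to 0.53, edgeR adjusted p = 0.446), with a lower level without IFNγ and a higher one with it in Sin3Bsg1. That of Dtx3l was -0.17 (-0.35 to 0.014) and those of the other 7 lay between -0.053 and 0.087.

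The other PARP genes responded less than the 6 induced members, while Parp3, Zc3hav1 and Parp4 rose by more than Parp8. Of 8 tested, 3 rose and 1 fell with IFNγ in sgCtrL, and 3 rose in Sin3Bsg1. Parp3, a DNA break sensor, rose by 0.81 in sgCtrL and 0.94 in Sin3Bsg1 on the log2 scale (edgeR adjusted p = 2.46e-09 and 2.92e-10), from 55.8 ± 1.23 to 97.9 ± 5.11 CPM in sgCtrL. Zc3hav1, the antiviral zinc finger protein also called PARP13, rose by 0.87 and 0.86 (adjusted p = 3.86e-09 and 4.07e-09). Parp4, of the vault particle, rose by 0.33 and 0.32 and was also higher in Sin3Bsg1, by 0.33 without IFNγ and 0.32 with it (adjusted p = 0.00463 and 0.00461). Tnks, a tankyrase, fell by 0.16 in sgCtrL (adjusted p = 0.0366). By genotype, Tiparp was lower in Sin3Bsg1 with IFNγ (-0.28, adjusted p = 0.0203), Tnks2 without it (-0.20, adjusted p = 0.0158) and Parp3 in the untreated experiment (-0.13, adjusted p = 0.0303).

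Of the IFNγ signalling list, 4 of 8 rose and 1 fell in both genotypes. Stat2 rose by 3.82 in sgCtrL and 3.89 in Sin3Bsg1 and Irf1 by 3.51 and 3.56 on the log2 scale (edgeR adjusted p at most 2.99e-14). Irf1 thus changed by about as much as Parp9. By genotype, Irf9 was higher in Sin3Bsg1 with IFNγ (0.26, adjusted p = 0.00731) and Jak2 without it (0.29, adjusted p = 0.000313). In the untreated experiment Jak2 (0.23) and Ifngr2 (0.13) were higher and Jak1 (-0.16) lower, with adjusted p of at most 0.00818.

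The enzymes that supply NAD+ or remove ADP-ribose mostly did not follow the induced members. Of 8 genes of NAD+ metabolism tested from a list of 11, 1 rose and 3 fell with IFNγ in sgCtrL, and 1 rose and 2 fell in Sin3Bsg1. Nampt, the rate-limiting enzyme of NAD+ salvage, rose by 1.29 in both (edgeR adjusted p = 2.88e-11 and 2.43e-11), from 113 ± 3.63 to 275 ± 11.5 CPM in sgCtrL. The NAD+ hydrolase Cd38 fell by 0.82 and 0.78, and Nmnat3 fell by 0.44 and 0.41. By genotype, Nadsyn1 was higher in Sin3Bsg1 with IFNγ (0.45, adjusted p = 0.0188) and in the untreated experiment (0.31, adjusted p = 0.0254), and Cd38 in the latter (1.09, adjusted p = 2.33e-08). Cd38 did not pass the genotype test in the IFNγ experiment, where its mean without IFNγ was 42.2 CPM in both genotypes.

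Of 7 ADP-ribose removing genes tested, none passed the edgeR test with IFNγ in sgCtrL, and Oard1 (0.33) and Adprs (0.24) rose in Sin3Bsg1. The glycohydrolase gene Parg was higher in Sin3Bsg1 with IFNγ (0.24, adjusted p = 0.0106), Macrod1 without it (0.45, adjusted p = 0.0338) and Macrod2 in the untreated experiment (0.43, adjusted p = 0.00774). Macrod1 and Macrod2 were at low levels, and neither call was made in the other experiment. Mean Macrod1 was 5.32 CPM in sgCtrL and 7.25 CPM in Sin3Bsg1 without IFNγ, and 6.17 and 5.93 CPM in the untreated experiment. Mean Macrod2 was 3.67 and 3.82 CPM without IFNγ, and 7.47 and 10.1 CPM in the untreated experiment. Of 8 genes of strand break repair, 3 rose in each genotype and none fell, among them Hpf1, the cofactor of PARP1 and PARP2, by 0.23 in sgCtrL and 0.29 in Sin3Bsg1, and Aptx, by 0.34 in Sin3Bsg1. None differed by genotype in the IFNγ experiment. In the untreated experiment Apex1 (0.13) was higher in Sin3Bsg1 and Xrcc1 (-0.17) lower.

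Among the 4 other deltex ligase genes none rose with IFNγ, in contrast to Dtx3l. Dtx1 fell by 1.45 in sgCtrL and 1.94 in Sin3Bsg1 (edgeR adjusted p = 1.78e-05 and 2.42e-07) at a low level, 4.82 ± 0.517 CPM without IFNγ in sgCtrL. Dtx4 fell by 0.23 in sgCtrL (adjusted p = 0.0258). Dtx1 was higher in Sin3Bsg1 without IFNγ (0.84, adjusted p = 0.00143) and Dtx4 in the untreated experiment (0.99, adjusted p = 5.74e-08). Neither call was made in the other experiment. Without IFNγ the means of Dtx4 there were 51.0 CPM in sgCtrL and 52.7 CPM in Sin3Bsg1. Those of Dtx1 in the untreated experiment were 1.41 and 2.13 CPM.

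Likeness was measured as Pearson's r of log2 CPM over the 12 libraries of the IFNγ experiment, among 10502 genes with a mean of at least 5 CPM. These libraries fall into treated and untreated ones, so that r mostly reflects that step, and it is given as a description. The 5 genes most like Parp9 were Irf1 (0.9994), Tgtp2 (0.9993), Igtp (0.9991), Gm12185 (0.9991) and Samhd1 (0.9990). Those most like Parp14 were Igtp (0.9993), Erap1 (0.9992), Stat2 (0.9991), Apol9a (0.9991) and Irf1 (0.9989). Of the members, Parp14 was number 11 for Parp9, Parp12 number 21, Dtx3l number 25 and Parp10 number 28. Parp11 followed at number 180 (0.984), Parp8 at number 1042 (0.858), Parp2 at number 4410 (0.278) and Parp1 at number 5247 (0.091).

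The block on chromosome 16 was also read against its neighbours within 200000 bases on either side, where 10 annotated genes were tested. Of the 6 that are neither members nor Gm49730, none rose by more than 0.39 on the log2 scale. Kpna1, next to Parp9, rose by 0.27 in sgCtrL and 0.26 in Sin3Bsg1 (edgeR adjusted p = 0.00115 and 0.0013), and Fam162a by 0.30 and 0.39. Hspbap1, on the other side next to Parp14, rose by 0.35 in sgCtrL (adjusted p = 0.00638), and Slc49a4 fell by 0.30 in Sin3Bsg1. These neighbours were named by position after their values were known.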

How the data were processed

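RNA was extracted from KPC1199 cells and sequenced as 16 libraries. The values are estimated counts per gene, which the authors deposited without normalization in a table for each experiment. Per the labels, the submitters' processing notes name fastp, HISAT2, StringTie and mm39. The methods of the study name HISAT2, featureCounts and mm9, and the versions and strand setting are not given in the sources used here. Of the gene identifiers, 98.7% and 98.8% are in GENCODE M39 (mm39). The control columns are named for lacZ. They were read as sgCtrL because the tables hold no guide besides it and Sin3Bsg1. Columns of group means were not used. In the untreated table, 324 loci without a gene were left out (0.615 to 0.677% of counts).

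Counts were rounded and tested with edgeR 4.0.16 in R 4.3.3 (TMM, filterByExpr, quasi-likelihood, two-sided), on the 12 libraries of the IFNγ experiment (14913 genes, coefficient of variation 6.78%) and apart on the 4 untreated ones (14589 genes, 2.84%). Benjamini-Hochberg adjustment covered all genes tested and the threshold was 0.05. The fits were tried on counts simulated from the fitted model itself, with changes larger than the genotype differences of the members. This trial does not bear on differences of that size. The SE is the absolute log2 fold change over the square root of F. Likeness used log2 CPM with a prior count of 2. Gene lengths for TPM are those of the deposited tables.

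The members and gene lists were chosen with earlier results of these data known. The text names the 9 members, Sin3b, and in each list up to 3 genes with the largest change with IFNγ (average of both genotypes) among those past the threshold, and genes past it for genotype or interaction, beside the 5 genes most like Parp9 and Parp14. A few genes of the lists are counted in them and not reported here by name. Alternatives were DESeq2 1.42.0, RLE normalization, no filter on low counts, a replicate block, only the groups compared and leaving out each library. Single genes other than the 9 members were not followed under these alternatives.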

Additional observations from a re-analysis of the deposited data

Results flagged for a closer look

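The genotype difference of Parp12 had opposite signs in the 2 experiments and passed the test in neither. Each Sin3Bsg1 library was above each sgCtrL library without IFNγ (log2 fold change 0.189, edgeR adjusted p = 0.0829), and each was below in the untreated experiment (-0.167, adjusted p = 0.259). Its libraries there were at 11.9 and 11.4 CPM in sgCtrL and at 9.78 and 11.0 CPM in Sin3Bsg1. The difference between the experiments was not tested, since the 2 tables were fitted apart and the experiment cannot be told apart from its libraries. A change of direction was not particular to Parp12. The group means of Parp8, Parp11 and Dtx3l also differed in opposite directions, with libraries overlapping without IFNγ for Parp8 and Parp11 and in the untreated experiment for Dtx3l. The share of all genes separated in this way was not counted, and the untreated groups held only 2 libraries each.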

How the results depend on the processing

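The 6 induced members rose past the threshold in both genotypes under every alternative run, and Parp1 was the member that passed, lower, in the untreated experiment under each. The genotype calls of Parp11, Dtx3l and Parp14 were each lost on leaving out any of several single libraries, as given with their values. With libraries left out, the log2 difference of Parp11 with IFNγ was 0.207 to 0.307. Without IFNγ that of Dtx3l was 0.227 to 0.291 and that of Parp14 -0.275 to -0.178. Differences near 0 changed sign under several settings, none past the threshold, and for all changes listed here the cause was not tested unless libraries or genes were left out by construction. In the IFNγ experiment counts were lowest for Parp11 without IFNγ and for Parp2 with it, and in the untreated experiment for Parp12. Apart from counts of calls, left-out libraries gave 305 values with the same call and direction, 18 that lost a call, 3 that gained one and 34 of the other sign, and the other settings 237, 7, 0 and 8.

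With DESeq2 the log2 change of Parp1 with IFNγ in Sin3Bsg1 was -0.00589, the genotype difference of Parp9 without IFNγ 0.000768 and its interaction -0.00622. No member was lower in Sin3Bsg1 without IFNγ (0), and 31 genes passed for the interaction instead of 17, of which 58.1% were higher instead of 70.6%. With RLE normalization Parp1 with IFNγ in Sin3Bsg1 was at -0.00585, its genotype difference with IFNγ at -0.000325, that of Parp9 without IFNγ at 0.00131 and its interaction at -0.00683, and 0 members were lower without IFNγ. Without a filter on low counts 110 genes passed for the interaction, 50% of them higher. With only the groups compared in the fit, 1500 genes instead of 2464 differed by genotype with IFNγ, 1 member was higher instead of 2, and Parp1 was at -0.00278, and 3996 genes instead of 2568 differed without IFNγ.

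Same-numbered replicates of different groups did not vary together. The correlation of their deviations was -0.197 to 0.232 over 18 pairs, and -0.0208 in the untreated experiment, so the number is not taken as a pairing. With a replicate block, 4400 and 4207 genes passed for IFNγ in sgCtrL and Sin3Bsg1, 2389 and 2511 for genotype with and without it, 13 for the interaction and 4675 in the untreated experiment. Under the block Parp8 lost its call in sgCtrL (0.161, adjusted p = 0.0513), and no other call of a member changed.

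With each library left out in turn, 1 to 31 genes passed for the interaction. The highest number came without sgCtrL replicate 1 with IFNγ, and the lowest without Sin3Bsg1 replicate 2 or sgCtrL replicate 3 without IFNγ. Between 1 and 3 members were higher by genotype with IFNγ, and without IFNγ 1 to 2 were higher and 0 to 1 lower. The log2 change of Parp1 with IFNγ ranged from -0.0402 to 0.0214 in sgCtrL and from -0.0264 to 0.0232 in Sin3Bsg1. Genotype differences with IFNγ ranged from -0.0204 to 0.0354 for Parp1, -0.0784 to 0.0138 for Parp8 and -0.0296 to 0.0202 for Parp9. Those without IFNγ ranged from -0.0427 to 0.0114 for Parp8, -0.0664 to 0.0481 for Parp9 and -0.056 to 0.0132 for Parp10. Those of the untreated experiment ranged from -0.0801 to 0.0572 for Parp10 and -0.206 to 0.0357 for Dtx3l. There a group is left with 1 library, which is assumed to vary like the other group. Interactions ranged from -0.0181 to 0.0304 for Parp1, -0.0518 to 0.0455 for Parp2, -0.0793 to 0.0321 for Parp8, -0.0484 to 0.0661 for Parp9 and -0.0149 to 0.163 for Parp11.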
